A study of Mus musculus with 12 samples.

Results

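The genes described here are 10 markers of the macrophages of the spleen: C1qa, C1qb, C1qc, Adgre1, Csf1r, Cd68, Spic, Vcam1, Mertk and Lyz2. They were chosen by symbol, each symbol gave 1 row of the 49315 in the count table, and all 10 rows passed the filter on low counts in every comparison. The table came from RNASeq of splenic T cells of 12-week-old male mice, 3 mice in each of 4 groups with 1 library per mouse. WT sham mice received vehicle and WT Ang II mice received angiotensin II at 490 ng/kg per day, both for 14 days from osmotic minipumps, and the miR-214-/- sham and miR-214-/- Ang II groups were treated likewise. The deletion in miR-214-/- mice is not restricted to T cells. T cells were enriched by magnetic negative selection, in which other cells are labelled and removed, so the macrophage genes were read in a preparation meant to hold few macrophages. Mir214 had 0 counts in all 12 libraries, WT included, a value that allows at most 3 counts per library. Poly(A) libraries do not retain mature miRs, and the counts therefore did not check the genotypes.

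Splenic macrophages live mainly in the red pulp, where they engulf worn-out red cells and recycle their iron, and in the marginal zone, where they take up particles from blood. C1qa, C1qb and C1qc encode the A, B and C chains of C1q, the recognition molecule of the classical complement pathway, which assembles from all 3 chains and which tissue macrophages secrete. Csf1r encodes the receptor through which CSF1 and IL-34 sustain macrophages. Spic is a transcription factor needed for red pulp macrophages and induced by haem. Adgre1 encodes the surface protein F4/80, Vcam1 an adhesion molecule of red pulp macrophages that endothelium also carries, and Mertk a receptor tyrosine kinase for uptake of dying cells. Cd68 is a glycoprotein of the lysosome, and Lyz2 encodes lysozyme. Monocytes express Csf1r, Cd68 and Lyz2 as well, and neutrophils also express Lyz2.

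On GRCm38 the C1q genes stand next to each other on the minus strand of chromosome 4. C1qb (ENSMUSG00000036905) spans 136880129 to 136886187, C1qc (ENSMUSG00000036896) 136889804 to 136893065 and C1qa (ENSMUSG00000036887) 136895917 to 136898803. Lyz2 (ENSMUSG00000069516) and Spic (ENSMUSG00000004359) are both on chromosome 10, at 117277331 to 117282321 and 88674772 to 88685015. Cd68 (ENSMUSG00000018774) is on chromosome 11 at 69664213 to 69666153, Adgre1 (ENSMUSG00000004730) on chromosome 17 at 57358691 to 57483527, Vcam1 (ENSMUSG00000027962) on chromosome 3 at 116109949 to 116129688 and Mertk (ENSMUSG00000014361) on chromosome 2 at 128698956 to 128802894. Csf1r carries the identifier ENSMUSG00000024621.

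C1qb, C1qc, Spic and Mertk moved together across mice, Cd68 followed them less closely, and Lyz2 did not. The sequences before the start sites of C1qb, C1qc, Cd68 and Lyz2 are shown as examples. They are from RefSeq on GRCm38.p6, are written 5′ to 3′ on the minus strand, and end at the RefSeq start or, where an annotated exon reaches further, at the edge of that exon. Capitals mark GAGGAA or its complement TTCCTC, the core of the PU-box read by ETS factors of macrophages such as PU.1 and Spi-C.
C1qb, chr4:136886201-136886450: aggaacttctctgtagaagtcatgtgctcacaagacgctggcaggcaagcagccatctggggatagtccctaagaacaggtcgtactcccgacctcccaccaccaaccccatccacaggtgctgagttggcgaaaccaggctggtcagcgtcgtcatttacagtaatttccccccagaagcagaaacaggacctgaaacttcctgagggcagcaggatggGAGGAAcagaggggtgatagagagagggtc
C1qc, chr4:136893066-136893164: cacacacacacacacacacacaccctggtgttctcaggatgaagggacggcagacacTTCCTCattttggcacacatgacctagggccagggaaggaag
Cd68, chr11:69666171-69666420: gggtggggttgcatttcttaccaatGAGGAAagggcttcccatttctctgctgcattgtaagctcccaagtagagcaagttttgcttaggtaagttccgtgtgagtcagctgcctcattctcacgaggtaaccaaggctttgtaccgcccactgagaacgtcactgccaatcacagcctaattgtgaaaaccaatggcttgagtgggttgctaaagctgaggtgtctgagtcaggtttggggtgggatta
Lyz2, chr10:117282322-117282522: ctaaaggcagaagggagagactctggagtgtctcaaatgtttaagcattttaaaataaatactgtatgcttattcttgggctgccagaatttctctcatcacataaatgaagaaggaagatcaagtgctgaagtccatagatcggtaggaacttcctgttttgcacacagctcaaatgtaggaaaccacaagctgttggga
The RefSeq table held the 250 bases before the start of 6 of the 10 genes, those above with Spic and Mertk. On either strand, GAGGAA was in 3 of the 6. Its first letter was 30 bases before the start of C1qb, 193 before that of C1qc and 225 before that of Cd68. The same letters were in 23.3% of 32851 mouse promoters of this length. TGCTGA, a half-site of MAF factors, was in 3 of the 6 (C1qb, Spic and Lyz2) and in 16.1% of all promoters. GAGGAA was not found before Spic, Mertk or Lyz2, and Spic and Mertk moved with the C1q genes. These matches describe the letters only, and their part in the levels was not tested.

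Total counts were between 21126874 and 29605988 per library, and counts of the 10 genes ran from 99 for Mertk in WT sham replicate 3 (95% Poisson interval 80.5 to 121, counting error only) to 36638 for Lyz2 in WT Ang II replicate 1. Levels are given as CPM, counts scaled to a common library total after TMM adjustment, and genes are ranked against each other only as RPKM, which divides CPM by exon length in kilobases. Ratios and sums of CPM are used below to compare libraries, not genes. The median RPKM over 12 libraries was 316 for Lyz2, 31.9 for C1qa, 31.7 for C1qb, 20.0 for Csf1r, 18.7 for C1qc, 15.3 for Cd68, 13.04 for Vcam1, 8.20 for Adgre1, 2.89 for Spic and 2.41 for Mertk. Lyz2 exceeded C1qa in 12 of 12 libraries, and C1qb exceeded Csf1r, Vcam1 exceeded Adgre1, Adgre1 exceeded Spic and Spic exceeded Mertk in 12 of 12 as well. The order of other neighbours varied between mice. C1qa was above C1qb in 6 libraries, Csf1r above C1qc in 8, C1qc above Cd68 in 8 and Cd68 above Vcam1 in 11. Over the 12 libraries 12 T cell genes, which include Cd3e and Lck, summed to between 3962 and 6575 CPM. The macrophage genes summed to between 177 and 1172 CPM without Lyz2 and between 354 and 2454 CPM with it. The sums come from different genes and do not measure the share of macrophages. In such bulk libraries fewer cells of a type and less RNA per cell cannot be told apart.

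The macrophage genes were not evenly spread between mice of one group, and 1 library stood apart. WT Ang II replicate 1 had the highest level of all 10 genes, from 2.58 times the median of the other 11 libraries for Cd68 to 3.61 times for C1qb. Among 16770 genes tested over the 12 libraries, 2002 (11.9%) were highest there and 925 (5.52%) were highest with more than 2 times the median of the others. Values of the 10 genes that rest on this library, and counts of calls in WT that changed without it, are given both ways. The lowest level was in WT Ang II replicate 2 for C1qa, C1qb, C1qc, Spic and Mertk, in WT sham replicate 3 for Adgre1, Csf1r, Cd68 and Vcam1, and in miR-214-/- sham replicate 2 for Lyz2. For 5 genes the highest and the lowest of 12 mice were thus in the same group.

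**Figure D1:**
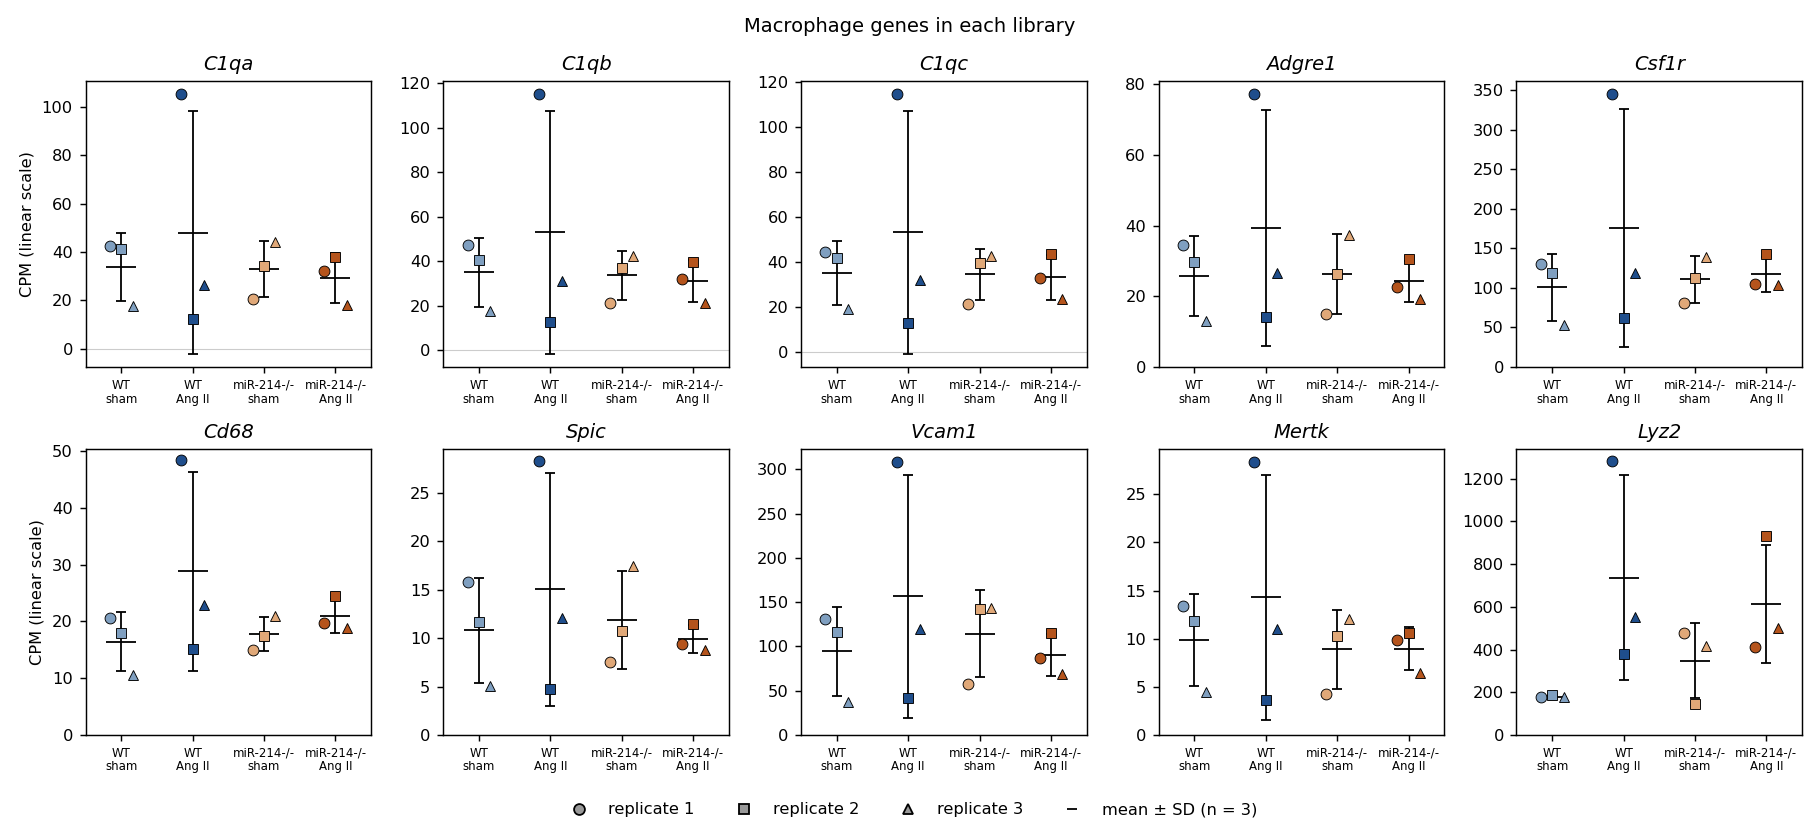
CPM of each macrophage gene (linear vertical axes from 0 or below, 1 panel per gene) in WT sham, WT Ang II, miR-214-/- sham and miR-214-/- Ang II mice, with 1 point per library and a bar for mean ± SD (n = 3). WT Ang II replicate 1 (circle) is the highest point of all 10 panels, and in the Lyz2 panel the 3 WT sham points lie together at 177 to 185 CPM.

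The C1q genes gave the clearest picture of this spread. C1qb was at 47.1, 40.6 and 17.6 CPM in WT sham and at 115, 12.6 and 30.9 CPM in WT Ang II. In miR-214-/- mice it was at 21.2, 37.2 and 42.5 CPM in sham and at 31.9, 39.8 and 21.2 CPM in Ang II. The Ang II and sham ranges overlapped in both genotypes, and the WT Ang II mice alone covered the whole span of the 12. The group means were 35.1 ± 15.5 CPM in WT sham, 52.9 ± 54.7 CPM in WT Ang II, 33.6 ± 11.1 CPM in miR-214-/- sham and 31.0 ± 9.38 CPM in miR-214-/- Ang II (SD, n = 3), so that in WT Ang II the SD was as large as the mean. C1qa ran from 12.2 to 105 CPM and C1qc from 12.7 to 115 CPM over the same libraries. As shares of the summed CPM of the C1q genes, C1qa took 28.8% to 34.1%, C1qb 32.6% to 35.1% and C1qc 32.9% to 37.3% in the 12 libraries. The chains therefore kept nearly one ratio while their level moved over 3.18 on the log2 scale for C1qb.

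Csf1r and Adgre1 followed the same mice. Csf1r was at 131, 118 and 52.7 CPM in WT sham and at 345, 62.1 and 119 CPM in WT Ang II. In miR-214-/- mice it was at 80.5, 112 and 139 CPM in sham and at 105, 143 and 104 CPM in Ang II. WT sham replicate 3 and WT Ang II replicate 2 were again the low libraries. Adgre1 was at 34.7, 29.7 and 13.1 CPM in WT sham and at 77.3, 14.2 and 26.7 CPM in WT Ang II, and at 15.04, 26.4 and 37.5 CPM in miR-214-/- sham and 22.7, 30.6 and 19.4 CPM in miR-214-/- Ang II. Neither gene separated the groups.

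Among genes tied to red pulp macrophages and to uptake of cells, Spic was at 15.8, 11.6 and 5.05 CPM in WT sham and at 28.3, 4.76 and 12.1 CPM in WT Ang II. In miR-214-/- mice Spic was at 7.54, 10.7 and 17.4 CPM in sham and at 9.41, 11.5 and 8.80 CPM in Ang II. The factor thus followed the C1q genes mouse by mouse. Vcam1 was at 131, 116 and 36.9 CPM in WT sham, 309, 41.2 and 120 CPM in WT Ang II, 58.0, 142 and 143 CPM in miR-214-/- sham and 86.5, 115 and 68.9 CPM in miR-214-/- Ang II. Mertk was at 13.4, 11.8 and 4.47 CPM in WT sham, 28.4, 3.61 and 10.98 CPM in WT Ang II, 4.27, 10.3 and 12.1 CPM in miR-214-/- sham and 9.88, 10.6 and 6.44 CPM in miR-214-/- Ang II. Both followed the C1q genes, with the low libraries WT sham replicate 3, WT Ang II replicate 2 and miR-214-/- sham replicate 1.

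Cd68 was flatter than the genes above, and Lyz2 differed from them in pattern. Cd68 was at 20.6, 18.0 and 10.6 CPM in WT sham and at 48.5, 15.1 and 22.8 CPM in WT Ang II, and in miR-214-/- mice at 14.95, 17.4 and 20.9 CPM in sham and 19.7, 24.5 and 18.8 CPM in Ang II. Lyz2 was at 177, 185 and 177 CPM in WT sham and at 1282, 378 and 551 CPM in WT Ang II. In miR-214-/- mice Lyz2 was at 476, 146 and 418 CPM in sham and at 413, 929 and 500 CPM in Ang II. The WT groups of Lyz2 did not overlap, the miR-214-/- groups did, and WT sham was the tightest group with 180 ± 4.60 CPM (SD, n = 3) against 737 ± 480 CPM in WT Ang II, 347 ± 176 CPM in miR-214-/- sham and 614 ± 277 CPM in miR-214-/- Ang II.

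How closely the genes moved together was described by the Pearson r of their log2 CPM over the 12 libraries, which share mice, depth and the library that stands apart. Between the 9 genes other than Lyz2 there are 36 pairs, and r was between 0.82 and 0.997 with a median of 0.96. Without WT Ang II replicate 1 the pairs lay between 0.63 and 0.99, with a median of 0.93. Lyz2 had an r with the other 9 between 0.30 and 0.70 (median 0.34), and between -0.13 and 0.50 (median -0.02) without that library. The ratio of each gene to the mean CPM of the C1q genes showed the same order. The SD of the log2 ratio over the 12 libraries was 0.21 for Mertk, 0.22 for Adgre1, 0.26 for Spic, 0.26 for Vcam1, 0.28 for Csf1r, 0.46 for Cd68 and 1.05 for Lyz2. The ratio of Lyz2 CPM to the C1q mean CPM was lowest, at 3.96, in WT sham replicate 1 and miR-214-/- sham replicate 2, and highest, at 30.3, in WT Ang II replicate 2. In that last mouse the C1q genes were at their lowest and Lyz2 was above every WT sham mouse.

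**Figure D2:**
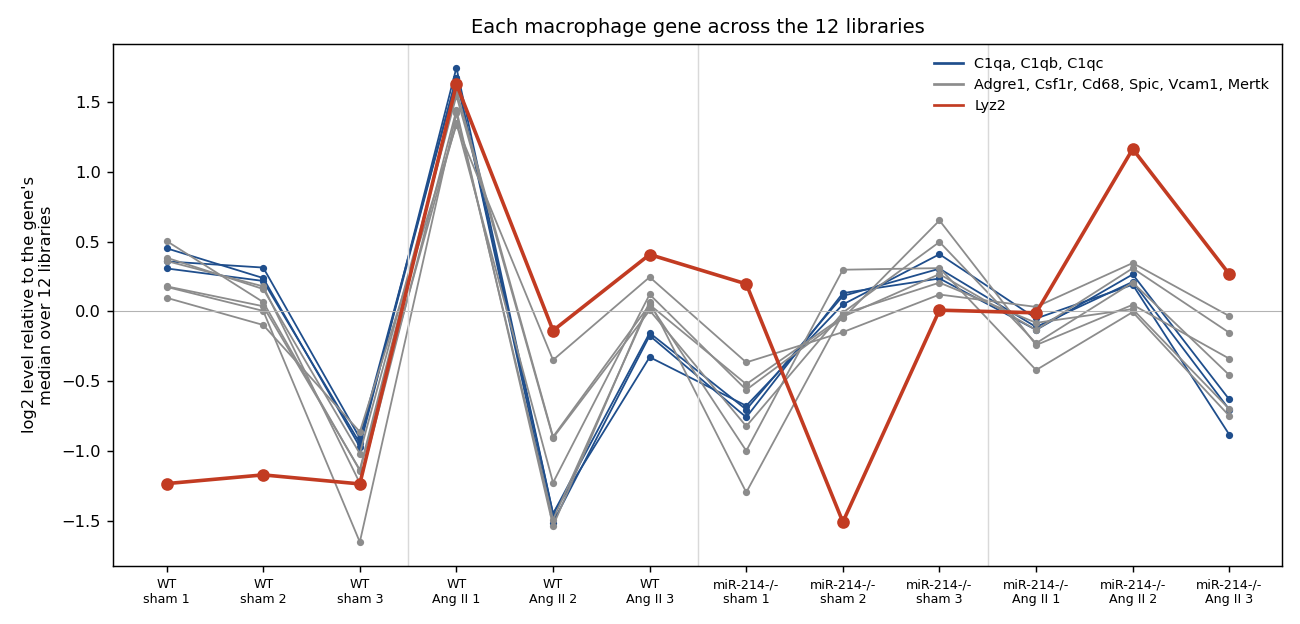
log2 level of each macrophage gene relative to its own median over the 12 libraries (vertical axis), by library (horizontal axis, grouped by genotype and treatment); lines join the points of a gene to guide the eye, and libraries of a group have no order. The 9 genes other than Lyz2 run together, with r between 0.82 and 0.997, and Lyz2 departs from them, below in WT sham replicates 1 and 2 and miR-214-/- sham replicate 2 and above in libraries such as WT Ang II replicate 2, where its ratio to the C1q mean is highest at 30.3.

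The genes of the whole table most like the C1q mean, by Pearson r over the 12 libraries among 13752 expressed genes, were Apoe (0.99), Itgad (0.98), Mrc1 (0.98), Gfra2 (0.98) and Itga9 (0.98). Itgad and Mrc1, which encode the integrin CD11d and the mannose receptor, were on the list of other red pulp macrophage genes. Apoe, the lipid carrier apolipoprotein E, ran from 34.9 CPM in WT Ang II replicate 2 to 197 CPM in WT Ang II replicate 1. The closest gene to Adgre1 was Fcna (0.99), to Csf1r Cfp (0.99), to Cd68 Sirpa (0.98), to Spic Kcnj10 (0.98), to Vcam1 Trf (0.98) and to Mertk Mrc1 (0.99). For Lyz2 it was Ifitm3 (0.98), an interferon-induced membrane protein from the list of monocyte genes, at 11.7, 15.7 and 12.8 CPM in WT sham and 63.6, 24.3 and 34.9 CPM in WT Ang II. All of these closest genes had their highest level in WT Ang II replicate 1. Their r was not computed without that library.

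Ang II was compared with sham in WT mice by edgeR's quasi-likelihood test over 16012 genes, where a call needed a log2 fold change beyond 1 in either direction and an adjusted p below 0.05. Of the 10 macrophage genes 1 was called, Lyz2, which was higher after Ang II. Of all genes tested, 7.3% were called and 7.01% were called higher. Lyz2 rose by 2.05 on the log2 scale (SE 0.43, 95% interval 1.04 to 3.06, adjusted p = 0.0206 from edgeR). It was also the single gene of the 10 that was higher in every Ang II library than in every sham library, which held for 19.7% of the genes tested. The other 9 had positive differences within the spread between mice. Their log2 fold changes were 0.53 for C1qa, 0.61 for C1qb, 0.62 for C1qc, 0.63 for Adgre1, 0.82 for Csf1r, 0.83 for Cd68, 0.49 for Spic, 0.75 for Vcam1 and 0.55 for Mertk, with adjusted p-values from edgeR between 0.233 for Cd68 and 0.652 for C1qa. The 95% interval for C1qb, -1.19 to 2.41, left room for a change of either sign. The median over the 10 was 0.62, against -0.02 over all genes tested.

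The sign of these 9 differences rested largely on 1 mouse. Without WT Ang II replicate 1 the log2 fold change was -0.81 for C1qa, -0.69 for C1qb, -0.66 for C1qc, -0.34 for Adgre1, -0.15 for Csf1r, -0.37 for Spic, -0.23 for Vcam1 and -0.45 for Mertk, so 8 of the 10 turned negative and the median became -0.35. Cd68 was at 0.21. Lyz2 remained higher by 1.37 (SE 0.15, adjusted p = 0.00174 from edgeR). Its call was lost when a sham library was left out, with adjusted p-values from edgeR of 0.0785 without WT sham replicate 1, 0.0639 without replicate 2 and 0.0754 without replicate 3, while the log2 fold change stayed between 2.04 and 2.07.

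**Figure D3:**
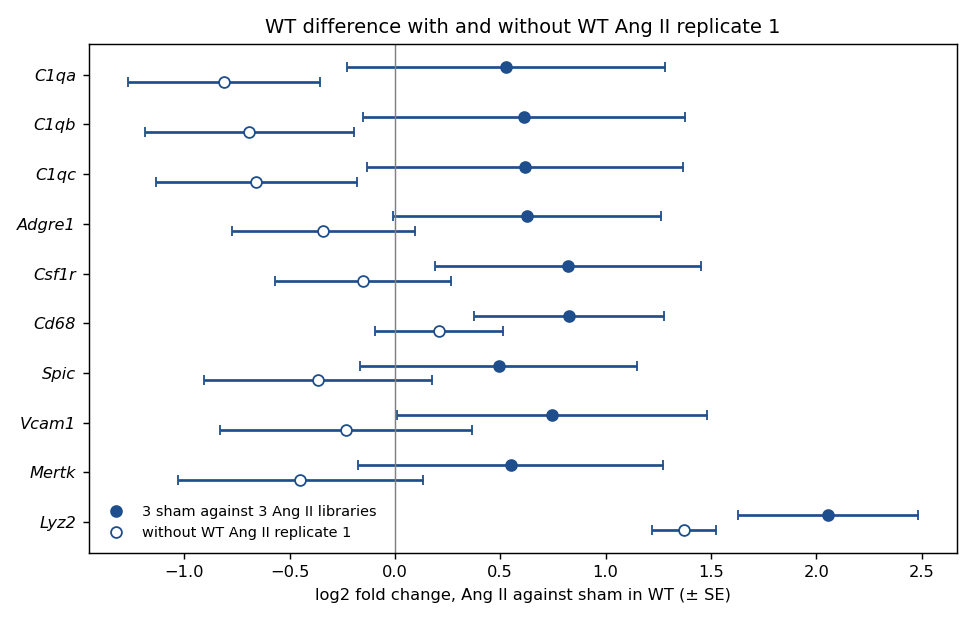
log2 fold change of Ang II against sham in WT mice (horizontal axis) with its SE for each macrophage gene, from all 6 WT libraries (filled) and without WT Ang II replicate 1 (open). The open points of 8 genes lie below 0, down to -0.81 for C1qa, and Lyz2 lies at 2.05 and 1.37.

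In miR-214-/- mice the same comparison called none of the 10 genes, and 0.0% of 15937 genes were called (0 genes by edgeR, 1939 at an unadjusted p under 0.05, 51 called by DESeq2). The log2 fold changes ran from -0.34 for Vcam1 to 0.82 for Lyz2, with a median of -0.08. The median turned with the library left out, from -0.34 without miR-214-/- sham replicate 1 to 0.18 without sham replicate 3. For C1qb the value was -0.11 with a 95% interval of -0.83 to 0.61. Lyz2 had an SE of 0.47 and an adjusted p of 0.513 from edgeR, and its mean of 614 CPM after Ang II rested most on replicate 2, at 929 CPM. Its log2 fold change was 0.40 without that library and 0.45 without miR-214-/- sham replicate 2. Of the 10 genes 0 had an unadjusted p under 0.05, and DESeq2 also called 0 of the 10.

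Among sham mice, miR-214-/- and WT differed in none of the 10 genes by the same rule, and 0.0189% of 15913 genes were called. The log2 fold changes of miR-214-/- against WT ran from -0.17 for Mertk to 0.94 for Lyz2, with a median of 0.06. That median lay between -0.26 without WT sham replicate 3 and 0.30 without WT sham replicate 1. Lyz2 had an unadjusted p of 0.0361 and an adjusted p of 0.701, both from edgeR. In the sham mice, miR-214-/- replicates 1 and 3 stood at 476 and 418 CPM, over every WT sham mouse, and replicate 2 at 146 CPM, under all of them. Without miR-214-/- sham replicate 2 Lyz2 was higher by 1.31 (adjusted p = 0.0116 from edgeR), and that setting called 1 of the 10 genes. Of all 16307 genes tested in that setting, 13 were called, 11 higher and 2 lower.

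After Ang II, 0.0% of 16215 genes were called between the genotypes (0 genes by edgeR, 1388 at an unadjusted p under 0.05, 21 called by DESeq2), and 0 of the 10 macrophage genes. All 10 values were negative, from -0.80 for Vcam1 to -0.27 for Lyz2, with a median of -0.68. Without WT Ang II replicate 1 all 10 were positive, from 0.17 for Cd68 to 0.62 for C1qa, with a median of 0.36 and Lyz2 at 0.42. This comparison uses the same Ang II libraries as those within each genotype and adds no independent look at them.

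The interaction, the difference between the genotypes in the response to Ang II, was fitted over all 12 libraries, where an adjusted p under 0.05 was the only threshold. It called 0 of the 10 genes, and 0.00596% of 16770 genes. The interaction log2 fold change was -1.21 for Lyz2 (SE 0.70, 95% interval -2.74 to 0.32, adjusted p = 0.423 from edgeR) and between -1.07 for Vcam1 and -0.51 for Mertk for the others, with a median of -0.71 over the 10. Without WT Ang II replicate 1 the median was 0.24, with Lyz2 at -0.53 and C1qa at 0.65. The rise of Lyz2 in WT was therefore not shown to differ from that in miR-214-/- mice.

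Other genes of macrophage biology were read from lists of known genes. Of 16 other red pulp macrophage genes tested in WT, 0 were called (median log2 fold change 0.71, and -0.12 without WT Ang II replicate 1). Slc40a1, which encodes the iron exporter ferroportin, was at 129, 87.6 and 41.6 CPM in WT sham and 199, 63.3 and 124 CPM in WT Ang II, and Ftl1, the ferritin light chain, had a log2 fold change of 0.44 (adjusted p = 0.104 from edgeR). Of 4 marginal zone macrophage genes 0 were called (median 1.03, and -0.12 without that library). Siglec1, the sialic acid receptor CD169, was at 16.4 CPM in WT Ang II replicate 1 and at 4.52 CPM or less in the other 11 libraries, and Fcna, which encodes ficolin A, at 79.8 CPM there and between 10.5 and 30.7 CPM elsewhere. The sums of both lists were highest in WT Ang II replicate 1, as were the C1q genes.

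Some other genes of the pathways around the 10 were called, to be read against the 7.01% of all genes called higher in WT. That share was 1122 of 16012 genes, and 1253 of 16431 were called higher without WT Ang II replicate 1. Of 12 complement genes besides C1q, 3 were called higher in WT, among them C5ar1, the receptor for C5a (2.38, adjusted p = 0.016 from edgeR), and C3, the central component (2.29, adjusted p = 0.0137 from edgeR), and 2 were called without WT Ang II replicate 1. Of 14 genes of the CSF1 axis and of myeloid regulation, 5 were called higher, with Csf2rb (1.62) and Csf2ra (1.31), which encode receptor chains for GM-CSF, and Spi1 (1.59), which encodes PU.1, at the largest differences. The calls of this list fell to 2 and its median from 0.81 to 0.42 without WT Ang II replicate 1. Of 16 genes for the uptake of dying cells, 2 were called higher: Cd36, a scavenger receptor (2.40, adjusted p = 0.00692 from edgeR), and Dock1, an exchange factor of engulfment (1.67, adjusted p = 0.0314). The count was 2 without that library too, while the median went from 0.53 to -0.14. Of 16 lysosome genes, 1 was called higher, Lamp2 (1.01, adjusted p = 0.014 from edgeR), and without WT Ang II replicate 1 it was 0 of 16 (median 0.41 with and 0.04 without). None of these genes was called in the other 4 comparisons.

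Markers of other cells of the spleen moved with Lyz2. Their calls are to be read against the 7.01% of all genes called higher in WT, and against 1253 of 16431 without WT Ang II replicate 1. All 12 of 12 neutrophil genes were called higher in WT after Ang II (median 3.18), with Mmp8 (3.71), Retnlg (3.59) and Ltf (3.34) named by size. Their summed level was between 216 and 291 CPM in WT sham, 1215 and 3516 CPM in WT Ang II, 284 and 1084 CPM in miR-214-/- sham and 672 and 3186 CPM in miR-214-/- Ang II, and none of them was at 0 in all libraries. It was lowest in miR-214-/- mice in sham replicate 2 and highest in Ang II replicate 2, the mice in which Lyz2 was lowest and highest. Of 15 monocyte genes, 4 were called higher (median 1.18), among them F13a1 (2.92), Fn1 (2.38) and Ifitm3 (1.63). Without WT Ang II replicate 1 the monocyte list had 3 calls and a median of 0.57, and the neutrophil list 12 calls and a median of 2.72. The monocyte list summed to between 459 and 474 CPM in WT sham, 688 and 1993 CPM in WT Ang II, 394 and 814 CPM in miR-214-/- sham and 872 and 1148 CPM in miR-214-/- Ang II. The part of neutrophils and monocytes in the rise of Lyz2 was not tested.

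The other lists had their largest sums in different libraries. For basophil and mast cell genes it was WT Ang II replicate 1, at 432 CPM, as for the C1q genes. Of 12 red-cell precursor genes 11 were called higher in WT (median 3.497), among them Rhag (4.33) and Slc4a1 (4.17), and their sum was largest in WT Ang II replicate 2, at 2073 CPM, where the C1q genes were lowest. All 12 proliferation genes were called higher (median 2.27), with Ccnb1 (2.53), Birc5 (2.45) and Cdk1 (2.37) in front, and all 6 basophil and mast cell genes (median 1.68), with Prss34 (2.70), Mcpt8 (2.53) and Fcer1a (1.69). Of 10 dendritic cell genes 1 was called higher (Zbtb46, 1.60). That list had a median of 0.68 and went both ways, down to -0.65 for Ccr7. Its sum was 551 to 619 CPM in WT sham and 412 to 473 CPM in WT Ang II. Among 6 megakaryocyte genes 1 was called higher (Gp9, 1.32), and among 7 endothelial and stromal genes 1 (Bst1, 2.07). The endothelial and stromal list had a median of 0.07, with Vcam1 not among its genes. Without WT Ang II replicate 1 the calls of these lists were 2, 3 and 1. Calls in all lists here are to be read against the 7.01% of all genes called higher in WT, and against 1253 of 16431 without that library. None of 7 B cell genes (median -0.32, Cd79a -0.15, Cd79b -0.22) or 4 NK cell genes (median -0.73, Eomes -0.46, Ncr1 -0.72) was called. For all 12 T cell genes the 3 Ang II libraries of WT lay below the 3 sham libraries (median -0.51, Tcf7 -0.50, Lck -0.55). The share of all genes that were lower in this way was not counted. The adjusted p of the T cell genes in edgeR ran from 0.0052 to 0.0595, and 0 were called because none reached a log2 fold change of 1 in size. They summed to between 5769 and 6575 CPM in WT sham and between 3962 and 4526 CPM in WT Ang II, and their part in the levels of the macrophage genes was not tested.

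**Figure D4:**
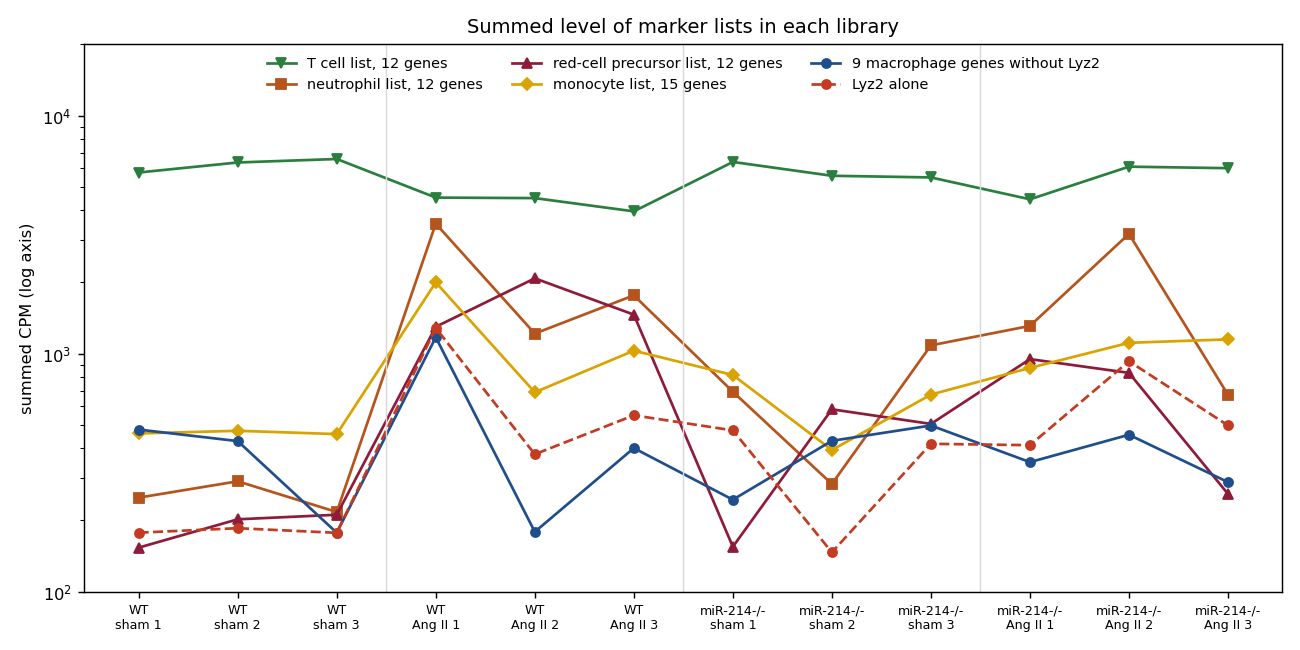
Summed CPM (log axis) in each library of the 9 macrophage genes without Lyz2, of Lyz2 alone and of marker lists for T cells (12 genes), neutrophils (12 genes), red-cell precursors (12 genes) and monocytes (15 genes); lines join libraries to guide the eye. Neutrophil genes are between 216 and 291 CPM in WT sham and between 1215 and 3516 CPM in WT Ang II, while the macrophage genes without Lyz2 span 177 to 480 CPM and 178 to 1172 CPM there.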

How the data were processed

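The authors mapped trimmed paired-end reads to GRCm38 with STAR and counted unique exonic reads per gene with featureCounts (Subread 1.5.2 in the submitters' processing notes). They deposited raw counts without normalization. The annotation release and strand setting are not given in the sources used here. Reads shared by near-identical genes were not counted, which bears on Lyz2, whose copy Lyz1 is close in sequence.

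Of 49315 identifiers 49056 matched GENCODE M21, and the 259 others held 0.0245% of the counts. Of 12 pairs of libraries within a group 0 were identical. Totals were 21126874 to 29605988 per library. The tests ran in edgeR 4.0.16 under R 4.3.3 (filterByExpr, TMM, quasi-likelihood test, Benjamini-Hochberg over all genes tested) and drawn with matplotlib 3.10.9 in Python 3.11.15. Groups came from the labels, and each comparison used its own 6 libraries, the interaction all 12. The study's methods did so with DESeq2 for Ang II in each genotype and for the interaction. The comparisons between genotypes were added here, and DESeq2 (1.42.0) was used as an alternative. Mice are separate animals. An exact test of 3 against 3 cannot go below p = 0.1. The fit was tested on simulated data. Alternatives were DESeq2, RLE or library-size scaling, no filter or 10 counts in every library, the adjusted-deviance fit, 1 fit over all groups, the adjusted p alone, the replicate number as a block, and leaving out each library.

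The 10 genes and the 17 other lists were chosen with earlier results of these data known. All 10 are named throughout. In other lists the called genes with the largest differences in WT are named (up to 3), or the 2 with the highest counts where none was called, in B, NK and T cell and macrophage lists. Genes most like a member had the highest r among genes with a mean log2 CPM over 0. Some results for named genes of the other lists are not reported here. Ccl19 had no single row and was left out of its list. Timd4 and Itgam are each on more than one list.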

Additional observations from a re-analysis of the deposited data

How the results depend on the processing

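Of the alternative fits, 79 over the 5 comparisons, 0 called any of the 9 genes other than Lyz2, with a smallest adjusted p of 0.107 (0.318 in DESeq2). Lyz2 was called in WT in 12 of 15 alternatives, with adjusted p-values between 0.00171 and 0.0785, so the number of macrophage genes called lay between 0 and 1. Leaving out each library gave a median WT log2 fold change over the 10 genes from -0.35 to 1.07. By gene it ran from -0.81 to 0.98 for C1qa, -0.69 to 1.07 for C1qb, -0.66 to 1.07 for C1qc, -0.34 to 1.02 for Adgre1, -0.15 to 1.22 for Csf1r, -0.37 to 0.91 for Spic, -0.23 to 1.19 for Vcam1 and -0.45 to 0.999 for Mertk, and the lower end came in each case without WT Ang II replicate 1. In miR-214-/- mice the median ran from -0.34 to 0.18. Between sham groups the number called was 0 to 1 and the median ran from -0.26 to 0.30. Between Ang II groups the median ran from -1.13 to 0.36 and Lyz2 from -0.69 to 0.42, and for the interaction the median ran from -1.13 to 0.24. In each case the cause was not tested.

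Scaling and filters changed no call among the 10 genes. Over all genes, the WT calls were 1169, against 564 without WT sham replicate 1, 605 without WT sham replicate 3 and 599 without WT Ang II replicate 3. They were 930 without WT sham replicate 2 and 1008 without WT Ang II replicate 2. Without WT Ang II replicate 1 they rose to 1338. DESeq2 called 51 genes in miR-214-/-, 45 between sham groups, 21 between Ang II groups and 444 for the interaction, against 0, 3, 0 and 1 with edgeR. Without a filter 3 genes were called in miR-214-/- and 9 between sham groups. Without miR-214-/- Ang II replicate 1 the interaction called 919.

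Replicate numbers gave no uniform sign of pairing. Of 18 same-numbered pairs 7 had a correlation of deviations over 0.1, with a range from -0.56 to 0.34. Between WT Ang II and miR-214-/- sham the correlations were 0.34, 0.22 and 0.14. Whether the numbers mark a shared step was not settled by these values. With the replicate block Lyz2 in WT was at 1.85 (adjusted p = 0.0381), the median of the 10 genes at 0.36, and 966 genes were called. With 3 mice per group the spread between mice, not the counts, which were 99 or more for these genes, limits what could be called.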
